A study of Mus musculus with 40 samples.

Results

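p53, encoded by Trp53, and 9 genes that are textbook targets of it were followed across 10 short hairpin RNAs (shRNAs) in 4T1, a mouse mammary carcinoma line known as p53-deficient. The members were taken by symbol: Trp53, Cdkn1a, Mdm2, Ccng1, Aen, Perp, Plk2, Gadd45a, Sesn1 and Bax, so 10 of the 23480 genes in each of 2 expression tables, and all 10 were measured. An shRNA is a stem-loop transcript that is cut in the cell to a short guide, and the guide lowers mRNAs it pairs with. The series compared off-target effects of hairpins from the TRC collection with those of shERWOOD hairpins, which are chosen by an algorithm and carried in a microRNA backbone. The lines with a TRC hairpin were 66708 (against Slpi) and 88943 (against Mgp), selected with 1 µg/ml puromycin. The lines with a shERWOOD hairpin were Slpi1U1, Slpi1U2, Slpi2 and Slpi4 (against Slpi) and Mgp1, Mgp1U1, Mgp1U3 and Mgp2 (against Mgp), selected with 500 µg/ml hygromycin. Which hairpins are TRC was read from their catalogue-like numbers and their drug, so the collection, the vector and the drug cannot be told apart. All lines were 4T1 cells transduced at a multiplicity of infection of 0.3 and selected for 10 days. No untransduced line was analysed here, and each line had 2 libraries.

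p53 is a transcription factor that cells keep scarce by constant degradation. DNA damage and other stresses stabilize it, and it then binds paired copies of a short motif near its targets and raises their transcription. Its targets halt the cell cycle, promote apoptosis, repair DNA or, in the case of Mdm2, shut p53 down again. Many of them also answer to other regulators, so they are transcribed in cells without p53. A Trp53 read count says nothing about the protein or about mutations in the transcript.

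Depth was 12.2 M to 28.5 M reads for the Slpi libraries and 12.1 M to 23.3 M reads for the Mgp libraries, and every member had at least 135 reads in every library. The targets of the hairpins were checked first. Slpi stood at 156 and 145 CPM (reads scaled to the library total) in 66708, against 46.9 to 61.9 CPM in the 8 Slpi shERWOOD libraries, while the 8 Mgp shERWOOD libraries held 448 to 613 CPM. It was also low in 88943, a hairpin against Mgp, at 145 and 135 CPM. Mgp stood at 16.2 and 15.4 CPM in 88943, against 1.06 to 8.42 CPM in the 8 Mgp shERWOOD libraries, 14.8 to 31.2 CPM in the Slpi shERWOOD libraries and 108 and 102 CPM in 66708. The labelled target was thus lower in the shERWOOD lines than in the TRC line of each table. Epithelial markers fitted the carcinoma label (Cdh1, E-cadherin, 386 to 673 CPM), beside abundant vimentin (Vim, 4280 to 5070 CPM), while Cdh2 and the erythroid markers were at 0 and the summed leukocyte and endothelial markers were below 1 CPM in every library. The summed level of the 8 epithelial markers was 2299 to 2347 CPM in 66708, against 2023 to 2172 CPM in the Slpi shERWOOD libraries. It was 2640 to 2647 CPM in 88943, against 1559 to 1744 CPM in the Mgp shERWOOD libraries, and there the 6 mesenchymal markers summed to 11096 to 11247 CPM in 88943, against 8653 to 9323 CPM. The part of these shifts in the results below was not tested.

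Promoter windows of these genes were searched for the p53 motif, while introns and more distant sequence were not searched. RefSeq (GRCm38.p6) windows from 250 bases before to 50 bases after the transcript start were at hand for 9 of the 10 members, not for Perp. The p53 half-site, a palindrome of 10 bases, was searched, and so was a tandem site of 20 bases made of 2 half-sites without a spacer and with up to 2 mismatches, within which an exact half-site can lie. Of the 12 member windows, 9 held a half-site, against 8.36% of all 32851 windows, and 2 held a tandem site, against 0.326%. The 2 Aen windows overlap and hold the same half-site, 121 bases before 1 start and 10 bases after the other, so it counts in both. The stretches below run 5′ to 3′ from position -230 to -31 before the start, and capitals mark half-sites and tandem sites. Cdkn1a and Ccng1 are shown because they alone held a tandem site, each with 1 mismatch. Gadd45a and Aen, with a half-site only, are shown because they spread most widely over the 10 lines. For Aen only the 30 bases around the half-site are given.
Cdkn1a (chr17:29090749-29090948, plus strand): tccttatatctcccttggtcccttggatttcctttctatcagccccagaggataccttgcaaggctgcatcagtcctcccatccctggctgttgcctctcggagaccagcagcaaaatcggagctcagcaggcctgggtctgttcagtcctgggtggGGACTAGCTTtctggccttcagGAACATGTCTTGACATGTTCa
Ccng1 (chr11:40755317-40755516, minus strand): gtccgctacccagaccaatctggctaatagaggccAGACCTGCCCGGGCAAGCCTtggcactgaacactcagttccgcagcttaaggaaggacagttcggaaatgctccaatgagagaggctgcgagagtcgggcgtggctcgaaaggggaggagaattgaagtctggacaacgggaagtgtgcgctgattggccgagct
Gadd45a (chr6:67037438-67037637, minus strand): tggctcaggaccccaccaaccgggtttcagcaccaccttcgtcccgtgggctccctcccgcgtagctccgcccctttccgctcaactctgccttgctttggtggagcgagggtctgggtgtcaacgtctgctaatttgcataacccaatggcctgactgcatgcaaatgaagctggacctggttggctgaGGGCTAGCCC
Aen (chr7:78895927-78895956, plus strand): agccgaagccGGGCTTGTCCgggcaaggag
The tandem site began at position -51 in Cdkn1a and at position -195 in Ccng1. For Cdkn1a the position counts from the upstream of 2 starts. The window of the other start (chr17:29093519-29093818) held neither a half-site nor a tandem site. A match is a property of the letters, and binding was not measured here.

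**Figure D1:**
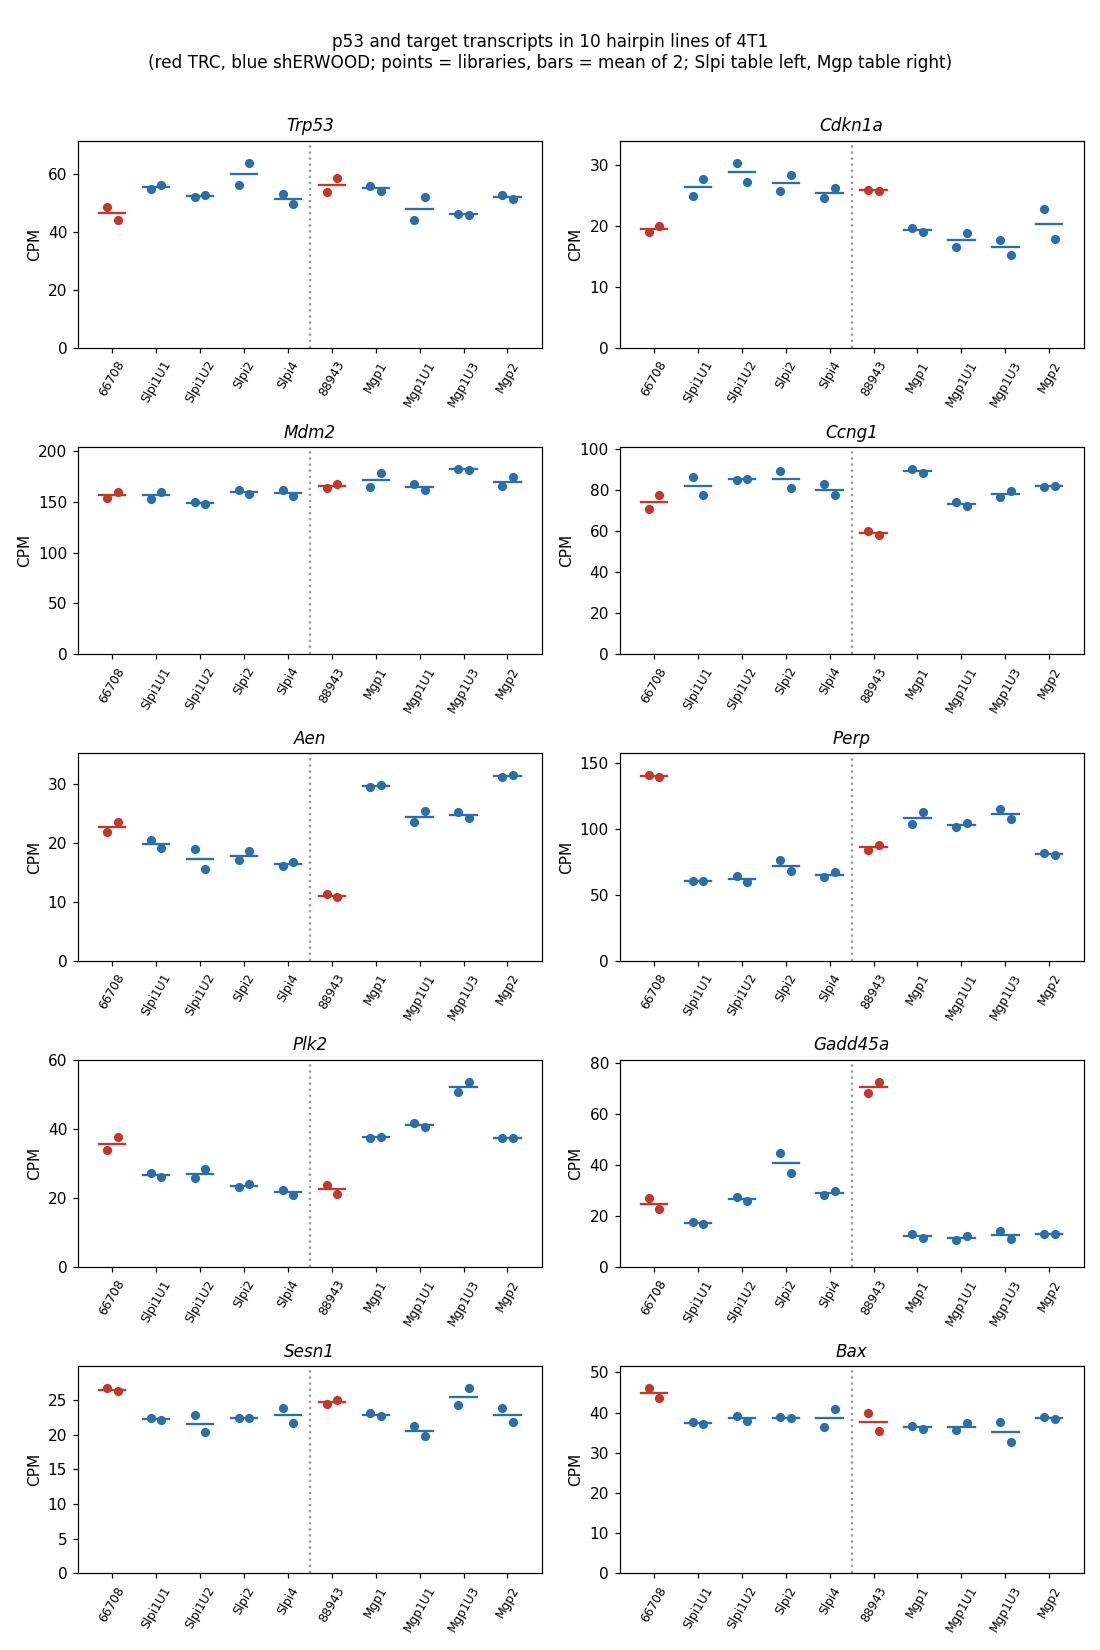
Level of each member in CPM (y axis, from 0) in the 10 lines (x axis), with points for the 2 libraries and bars for their mean; red lines carry a TRC hairpin, blue lines a shERWOOD hairpin. Gadd45a is highest in 88943 (70.4 CPM), Perp is highest in 66708 (140 CPM), and Mdm2, Bax, Sesn1 and Trp53 stay within a narrow band.

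Both TRC lines had members above and members below the shERWOOD lines of their table. In 66708, 6 of the 10 members passed the test, 5 higher (Aen, Perp, Plk2, Sesn1 and Bax) and 1 lower (Cdkn1a), where 51.9% of the 12332 genes tested passed (27.5% higher, 24.4% lower). In 88943, 7 of the 10 passed, 2 higher (Cdkn1a and Gadd45a) and 5 lower (Mdm2, Ccng1, Aen, Perp and Plk2), where 65.8% of the 12295 genes tested passed (31.5% higher, 34.4% lower). The members' shares in either direction were thus near those of all genes. Their division into higher and lower was less even than that of all genes, which was not tested over 10 members. Their median log2 difference was 0.13 in 66708 and -0.11 in 88943, against 0.00 for all genes tested in both. A member passed at an adjusted p under 0.05 in limma's moderated test of the TRC line minus the mean of the 4 shERWOOD lines. The log2 differences below are on the deposited variance-stabilized scale, which compresses the changes of weakly expressed genes. Folds and library values are therefore given in scaled reads, the reads divided by the authors' size factors. In these bulk samples, fewer cells of a type and less RNA per cell cannot be told apart.

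Trp53 (chr11:69580359-69591873, plus strand, ENSMUSG00000059552) was transcribed in every line. It had 854 and 770 scaled reads in 66708, against 826, 887 and 1060 (lowest, median and highest of 8 libraries) in the Slpi shERWOOD lines. Its log2 difference was -0.10 ± 0.042 (SE), which did not pass (adjusted p = 0.0516). It had 882 and 954 scaled reads in 88943, against 795, 923 and 993 in the Mgp shERWOOD lines, and a log2 difference of 0.02 ± 0.039 (adjusted p = 0.690). The TRC libraries overlapped the shERWOOD libraries in both tables. The first value lay close to the threshold: it passed without 66708 replicate 1 (adjusted p = 0.0423), Slpi1U1 replicate 1 (0.0427), Slpi2 replicate 1 (0.0220) or Slpi4 replicate 2 (0.0471), with voom on the recovered reads (0.0316), with equal medians (0.0212), with quantile normalization (0.0205) and with library totals (0.00180). With 1 mean per hairpin as the sample it failed (0.253), and without 66708 replicate 2 it was -0.05 (adjusted p = 0.479). In CPM both 66708 libraries (48.8 and 44.3) lay below the 8 Slpi shERWOOD libraries (49.9 to 64.0). The second had no stable sign, being -0.02 without 88943 replicate 2 and -0.0003 without Mgp1U1 replicate 1.

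Mdm2 and Ccng1 belong to the control of p53 itself, directly or through Mdm2. Mdm2 (chr10:117688875-117710758, minus strand) encodes the ubiquitin ligase that targets p53 for degradation and is induced by it, which makes a feedback loop. It had 2671 and 2717 scaled reads in 88943, against 2890, 3054 and 3309 in the Mgp shERWOOD lines, so both TRC libraries lay below all others. That was 1.14-fold lower in 88943 (log2 difference -0.16 ± 0.035, adjusted p = 5.14e-04). In 66708 it had 2683 and 2780 scaled reads, against 2414, 2598 and 2685 in the Slpi shERWOOD lines, and did not pass (log2 difference 0.08 ± 0.035, adjusted p = 0.0612). The call in 88943 was lost with quantile normalization (adjusted p = 0.227), with library totals (0.257) and with hairpin means as samples (0.0979). The value in 66708 passed without Slpi1U1 replicate 2 (0.0416) and with voom (0.0497).

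Ccng1 (chr11:40748552-40755311, minus strand) encodes cyclin G1, which binds a phosphatase that acts on Mdm2. It had 986 and 944 scaled reads in 88943, against 1290, 1447 and 1602 in the Mgp shERWOOD lines. The ranges did not overlap, and Ccng1 was 1.497-fold lower in 88943 (log2 difference -0.42 ± 0.032, adjusted p = 2.18e-09). In 66708 it had 1244 and 1350 scaled reads, against 1271, 1378 and 1466 in the Slpi shERWOOD lines, with overlap and no call (log2 difference -0.06 ± 0.042, adjusted p = 0.269), although it passed with quantile normalization (0.0418) and with library totals (0.0270). The value was -0.01 without 66708 replicate 1 and -0.10 without 66708 replicate 2.

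Of the genes grouped here under the cell cycle, Cdkn1a and Gadd45a rose in 88943 while Plk2 fell. In 66708 Cdkn1a fell, Plk2 rose and Gadd45a did not pass. Cdkn1a (chr17:29090976-29100727, plus strand) encodes p21, the inhibitor of cyclin-dependent kinases through which p53 stops the cell cycle. It had 333 and 347 scaled reads in 66708, against 403, 439 and 489 in the Slpi shERWOOD lines, and fell 1.30-fold (log2 difference -0.20 ± 0.040, adjusted p = 6.19e-04). It had 423 and 418 scaled reads in 88943, against 276, 329 and 409 in the Mgp shERWOOD lines, and rose 1.27-fold (log2 difference 0.18 ± 0.043, adjusted p = 0.00140). In each table the TRC libraries lay outside the shERWOOD range, on opposite sides. Of its exon bases, 7.68% overlap AC167363.2 on the opposite strand.

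Gadd45a (chr6:67035096-67037457, minus strand) encodes a small stress-response protein that binds cell cycle and repair factors. It had 1115 and 1179 scaled reads in 88943, against 193, 223 and 256 in the Mgp shERWOOD lines. With a rise of 5.21-fold (log2 difference 1.33 ± 0.039, adjusted p = 2.99e-15), this was the largest difference of any member in either table. In 66708 it had 472 and 396 scaled reads, against 279, 458 and 731 in the Slpi shERWOOD lines, so the TRC line lay inside a wide spread (log2 difference -0.04 ± 0.046, adjusted p = 0.536; 0.03 without 66708 replicate 2). In the annotation, 19.1% of its exon bases overlap E230016M11Rik on the opposite strand, and with the strand setting not given, reads of the 2 genes cannot be told apart there.

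Plk2 (chr13:110395046-110400844, plus strand) encodes a polo-like kinase with a part in centriole duplication. It had 594 and 655 scaled reads in 66708, against 347, 407 and 464 in the Slpi shERWOOD lines, and rose 1.54-fold (log2 difference 0.37 ± 0.039, adjusted p = 9.58e-07). It had 390 and 344 scaled reads in 88943, against 664, 698 and 969 in the Mgp shERWOOD lines, and fell 2.06-fold (log2 difference -0.58 ± 0.034, adjusted p = 4.89e-11). Neither pair of ranges overlapped.

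Of the genes of cell death, 2 differed in both tables and in opposite directions. Perp (chr10:18845020-18857073, plus strand) encodes a tetraspan membrane protein that serves both in p53-dependent apoptosis and in desmosomes. It had 2451 and 2414 scaled reads in 66708, against 972, 1039 and 1244 in the Slpi shERWOOD lines, and rose 2.29-fold (log2 difference 0.95 ± 0.038, adjusted p = 1.29e-11). In 88943 it had 1372 and 1425 scaled reads, against 1412, 1844 and 2092 in the Mgp shERWOOD lines, and fell 1.29-fold (log2 difference -0.27 ± 0.036, adjusted p = 2.72e-06). The ranges in the Mgp table overlapped, since 1 of the Mgp2 libraries lay between those of 88943. With hairpin means as samples the call was lost (adjusted p = 0.0795).

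Aen (chr7:78895854-78911209, plus strand) encodes an exonuclease that enhances apoptosis. It had 382 and 410 scaled reads in 66708, against 253, 292 and 330 in the Slpi shERWOOD lines, and rose 1.36-fold (log2 difference 0.23 ± 0.040, adjusted p = 1.88e-04). It had 183 and 174 scaled reads in 88943, against 424, 490 and 558 in the Mgp shERWOOD lines, and fell 2.75-fold (log2 difference -0.67 ± 0.033, adjusted p = 3.86e-12). Both TRC lines lay outside the range of their table.

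Bax (chr7:45461697-45466898, minus strand) encodes the pore-forming protein that permeabilizes mitochondria in apoptosis. It had 805 and 759 scaled reads in 66708, against 603, 627 and 677 in the Slpi shERWOOD lines, and rose 1.24-fold (log2 difference 0.20 ± 0.037, adjusted p = 2.37e-04). In 88943 it had 653 and 576 scaled reads, against 588, 659 and 699 in the Mgp shERWOOD lines, with overlap and no call (log2 difference -0.06 ± 0.039, adjusted p = 0.208; -0.11 without 88943 replicate 1 and -0.003 without 88943 replicate 2). Of its exon bases, 12.2% are shared with Gm45808 on the same strand.

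Sesn1 (chr10:41809935-41908424, plus strand) encodes a sestrin, a stress-induced restraint on growth signalling. It had 466 and 457 scaled reads in 66708, against 333, 365 and 395 in the Slpi shERWOOD lines, and rose 1.26-fold (log2 difference 0.19 ± 0.037, adjusted p = 5.02e-04). In 88943 it had 399 and 405 scaled reads, against 352, 405 and 481 in the Mgp shERWOOD lines, which held both TRC values (log2 difference -0.01 ± 0.035, adjusted p = 0.770).

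**Figure D2:**
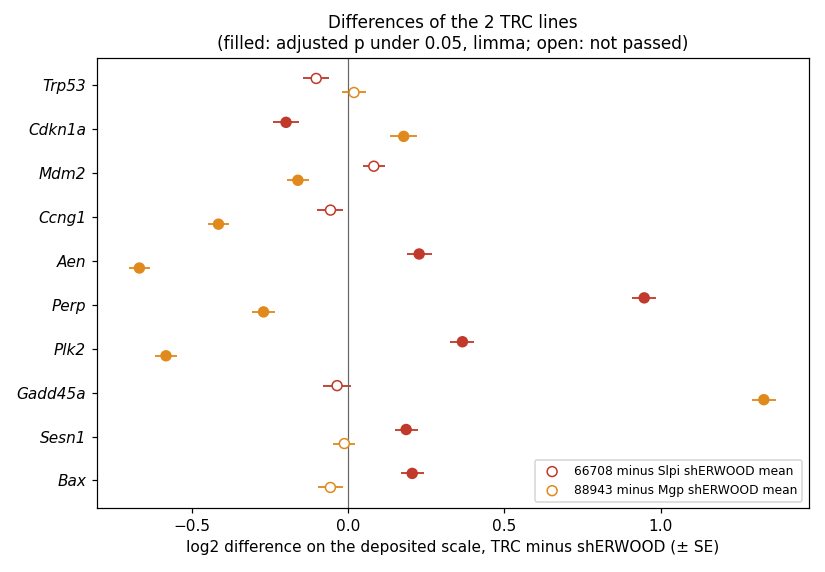
Log2 difference of each member (x axis, deposited scale, ± SE) for 66708 minus the Slpi shERWOOD mean (red) and 88943 minus the Mgp shERWOOD mean (orange); filled points passed at an adjusted p under 0.05. Cdkn1a, Aen, Perp and Plk2 are filled on both sides of 0, with Gadd45a at 1.33 and Perp at 0.95 farthest to the right.

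Set side by side, 4 members passed in both TRC lines (Cdkn1a, Aen, Perp and Plk2), and all 4 went opposite ways. Of all genes tested in both, 26.3% passed in both with opposite signs and 10.8% with the same sign, so opposite signs made up 70.9% of the genes passing in both. The 2 comparisons share no library, and their shERWOOD references differed as well as their TRC lines. The Slpi and Mgp shERWOOD means were 24.8 and 42.1 CPM for Plk2 and 64.7 and 101 CPM for Perp. They were 17.8 and 27.5 CPM for Aen and 26.9 and 18.5 CPM for Cdkn1a. In 66708 and 88943, Plk2 had 35.8 and 22.5 CPM and Perp 140 and 85.8 CPM. Aen had 22.7 and 10.98 CPM there, and Cdkn1a 19.5 and 25.8 CPM. How much of the opposite signs belongs to the references was not tested. The difference between the 2 differences was tested in 1 voom model over the recovered reads of all 20 libraries, and all 10 members passed, where 68.3% of the 12185 genes tested did. The difference, 66708 minus 88943, was largest for Gadd45a (log2 -2.46 ± 0.11, adjusted p = 8.97e-15), followed by Aen (1.91 ± 0.10, adjusted p = 3.70e-13), Plk2 (1.68 ± 0.084, adjusted p = 1.55e-13) and Perp (1.55 ± 0.065, adjusted p = 6.88e-15). Cdkn1a, at -0.71 ± 0.11 (adjusted p = 8.25e-06), stood on the side of Gadd45a. Smaller values belonged to Ccng1 (0.51), Bax (0.41), Sesn1 (0.35), Mdm2 (0.28) and Trp53 (-0.20 ± 0.085, adjusted p = 0.0377). With library totals in place of size factors, Mdm2 (adjusted p = 0.316) and Sesn1 (0.175) no longer passed, and Trp53 was at -0.42 (1.21e-04), with the median of all genes at -0.20, against 0.02 with size factors. The Trp53 value failed without any 1 of 7 libraries: 66708 replicate 2 (adjusted p = 0.370), 88943 replicate 2 (0.253), Mgp1U1 replicate 1 (0.0615), Mgp1 replicate 2 (0.0548), Slpi2 replicate 2 (0.0543), Slpi4 replicate 1 (0.0541) or Slpi1U2 replicate 2 (0.05001). It also failed without a filter (0.0720) and on the joined deposited values (0.0753).

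Members were also compared among the shERWOOD lines against the same gene. In the Slpi table, Gadd45a alone passed an F test among the 4 lines (adjusted p = 6.83e-06), where 6.6% of genes passed. In the Mgp table, 5 members passed, Perp (adjusted p = 8.39e-05), Plk2 (1.20e-04), Aen (0.00520), Ccng1 (0.0106) and Sesn1 (0.0481), where 23.4% of genes passed. Whether the tables differ in this respect was not tested. In the Mgp table the number was 3 without Mgp1 replicate 1 or Mgp1 replicate 2, and 8 without Mgp2 replicate 2.

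Each shERWOOD line was then set against the other 3 of its table, which gave 13 calls of members. These comparisons share lines, so a line that stands apart also shifts the comparisons of the other 3. The 13 calls are therefore not independent of each other. The share of all genes called was 1.5% for Slpi1U1, 1.01% for Slpi1U2, 2.83% for Slpi2, 4.73% for Slpi4, 5.56% for Mgp1, 4.9% for Mgp1U1, 12.3% for Mgp1U3 and 13.8% for Mgp2. Gadd45a moved both ways in the Slpi table. It was lower in Slpi1U1 (17.6 and 17.0 CPM, log2 difference -0.47 ± 0.047, adjusted p = 1.10e-05) and higher in Slpi2 (44.6 and 36.9 CPM, log2 difference 0.45 ± 0.047, adjusted p = 1.65e-05), where Perp was also higher (log2 difference 0.15 ± 0.040, adjusted p = 0.0449). No member passed in Slpi1U2 or Slpi4.

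In the Mgp table, Mgp1U3 had 4 members higher: Plk2 (log2 difference 0.29 ± 0.035, adjusted p = 5.20e-05), Perp (0.18 ± 0.037, adjusted p = 0.00513), Sesn1 (0.12 ± 0.036, adjusted p = 0.0351) and Mdm2 (0.11 ± 0.036, adjusted p = 0.0467). Mgp2 had Perp lower (-0.32 ± 0.037, adjusted p = 3.07e-05), Plk2 lower (-0.14, adjusted p = 0.0159) and Aen higher (0.14, adjusted p = 0.0124). Mgp1 had Ccng1 higher (0.14, adjusted p = 0.0209) and Plk2 lower (-0.14, adjusted p = 0.0270), and Mgp1U1 had Ccng1 lower (-0.13, adjusted p = 0.0291). Plk2 averaged 37.6 CPM in Mgp1, 37.4 in Mgp2 and 41.3 in Mgp1U1, against 52.2 in Mgp1U3, so its lower calls depend on Mgp1U3. Perp averaged 80.5 CPM in Mgp2, against 108 in Mgp1, 103 in Mgp1U1 and 111 in Mgp1U3, so its higher call depends on Mgp2. Neither Trp53 nor Cdkn1a passed in any of the 8 shERWOOD lines. The 13 calls became 8 without Mgp1 replicate 1 or Mgp1U1 replicate 2.

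**Figure D3:**
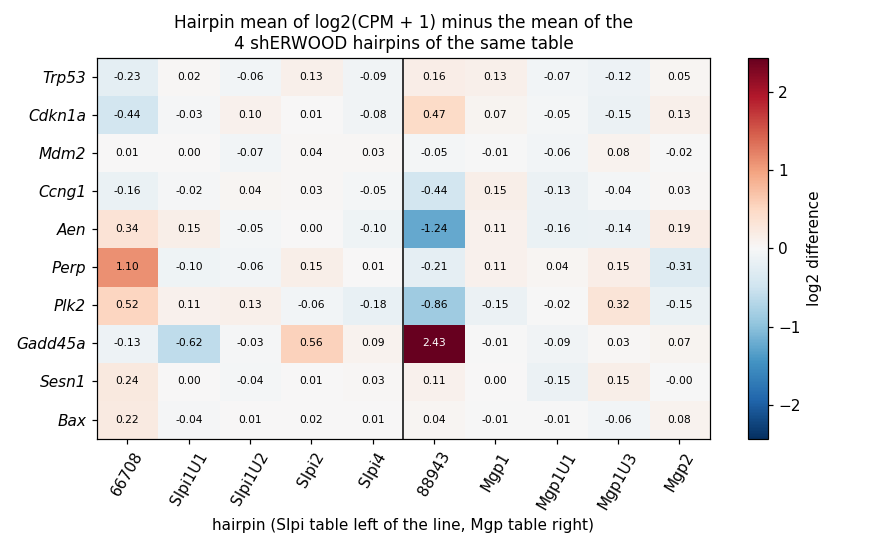
Mean log2(CPM + 1) of each member (rows) in each line (columns) minus the mean of the 4 shERWOOD lines of the same table; red is higher, blue lower, and the number in a cell is the difference. The columns of 66708 and 88943 hold the strongest colours, and among shERWOOD lines Gadd45a in Slpi1U1 (-0.62) and Slpi2 (0.56) stands out.

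Across all 10 lines, levels are given in CPM, which depends on neither table's size factors and is compared without a test. Trp53 was lowest in Mgp1U3 (46.3 ± 0.23 CPM, SD, n = 2) and highest in Slpi2 (60.2 ± 5.4 CPM), a ratio of 1.30. From low to high the order was Mgp1U3, 66708, Mgp1U1, Slpi4, Mgp2, Slpi1U2, Mgp1, Slpi1U1, 88943 and Slpi2. Of the 9 neighbouring pairs in that order 8 overlapped in their libraries, and the exception was Slpi1U2 (52.2 and 52.7 CPM) against Mgp1 (56.1 and 54.3 CPM).

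Of the 9 targets, 6 covered a wider range than Trp53. Gadd45a spread most, with 11.5 CPM in Mgp1U1 and 70.4 CPM in 88943, a ratio of 6.13. Aen had 10.98 CPM in 88943 and 31.3 CPM in Mgp2 (2.85-fold), Plk2 had 21.6 CPM in Slpi4 and 52.2 CPM in Mgp1U3 (2.41-fold), and Perp had 60.1 CPM in Slpi1U1 and 140 CPM in 66708 (2.32-fold). In Aen, Perp and Gadd45a 4 of 9 neighbouring pairs overlapped and in Plk2 5, so several steps in these orders exceeded the spread of the libraries. Cdkn1a had 16.5 CPM in Mgp1U3 and 28.8 CPM in Slpi1U2 (1.75-fold), and Ccng1 had 59.2 CPM in 88943 and 89.5 CPM in Mgp1 (1.51-fold). Sesn1 (20.49 CPM in Mgp1U1 and 26.5 CPM in 66708), Bax (35.2 CPM in Mgp1U3 and 44.9 CPM in 66708) and Mdm2 (149 CPM in Slpi1U2 and 182 CPM in Mgp1U3) varied least, by 1.29-, 1.27- and 1.22-fold.

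Per kilobase of annotated exon, the mean level over the 10 lines was highest for Perp (45.4 CPM per kb) and Mdm2 (32.1), then Bax (24.3), Ccng1 (22.5), Gadd45a (14.6) and Trp53 (12.97). Plk2 (7.26), Cdkn1a (6.38), Sesn1 (5.82) and Aen (3.71) were lower. The mean of Gadd45a rests on 88943, which was at 39.9 CPM per kb, with 6.51 in the lowest line.

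The targets did not move as 1 block. Over the 8 shERWOOD lines, each taken against the mean of its table, the 36 pairs of targets had a median Pearson r of 0.13, with 22 pairs above 0, 5 above 0.5 and 5 below -0.5. Mdm2 and Sesn1 rose and fell together most closely (r = 0.89), then Cdkn1a and Bax (0.75), while Plk2 and Bax (-0.69) and Perp and Bax (-0.66) ran apart. Mdm2, Cdkn1a and Bax passed the F test among the shERWOOD lines in neither table. Its adjusted p in the Slpi and Mgp tables was 0.284 and 0.104 for Mdm2, 0.595 and 0.220 for Cdkn1a, and 0.850 and 0.612 for Bax. How much of these r values is spread between libraries was not tested. Trp53 had a median r of 0.26 with the 9 targets, highest with Aen (0.73) and Ccng1 (0.72); that median was -0.16 without Slpi2, 0.42 without Mgp1U3 or Slpi1U1, and 0.10 with Spearman's rho. Over all 10 lines the median of the target pairs was 0.14, but that of Trp53 was -0.34. Single pairs turned sign with the TRC lines included: over all 10 lines r was -0.37 for Cdkn1a and Bax, 0.22 for Plk2 and Bax, 0.67 for Perp and Bax and -0.43 for Trp53 and Aen, while Mdm2 and Sesn1 stayed positive (0.50). These r values are descriptions over 8 or 10 points from 2 tables. The 8 shERWOOD lines share a vector and a drug, and the TRC lines have others. Those over all 10 lines also carry the shift of the TRC lines in CPM.

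**Figure D4:**
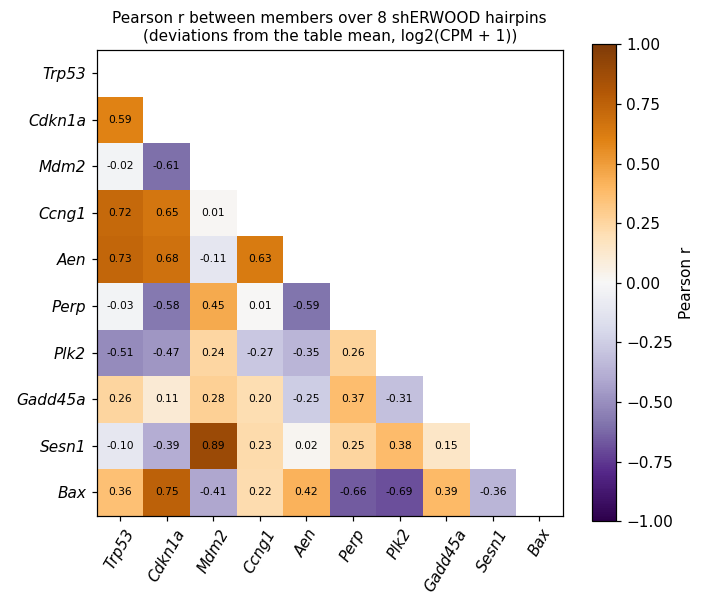
Pearson r for each pair of members over the 8 shERWOOD lines, from mean log2(CPM + 1) minus the table mean; orange is positive, purple negative. Mdm2 with Sesn1 (0.89) and Plk2 with Bax (-0.69) are the extremes, and no member is positive with all others.

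The genes whose level over the 10 lines was most like that of Trp53, among 8827 genes with at least 10 CPM on average, were Carkd (r = 0.90), Lonrf1 (0.89) and 2210404J11Rik (0.89). Those most like Cdkn1a were Mast3 (r = 0.995), Ncaph (0.987) and Ppox (0.985). None of these 6 genes is a member, and each r was the highest of many over 10 points that share 2 tables.

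Wider lists of p53 regulators and of further targets also held genes of both directions. Of 18 regulators 15 were tested, and 2 rose and 5 fell in 66708, as did 2 and 5 in 88943. Thus 46.7% passed in each line, against 51.9% of all genes tested in 66708 and 65.8% in 88943. On the deposited scale the largest differences in 66708 were in Hipk2, a kinase that phosphorylates p53 (log2 difference -0.30, adjusted p = 4.34e-05), Trp53bp1, a double-strand break protein (-0.29, adjusted p = 3.15e-05), Mdm4, the partner of Mdm2 (-0.27, adjusted p = 6.11e-06), and Chek1, a checkpoint kinase (-0.24, adjusted p = 3.32e-04). In 88943 they were in Usp10 (-0.38, adjusted p = 2.83e-08) and Usp7 (-0.26, adjusted p = 3.98e-06), deubiquitinases with p53 or Mdm2 among their substrates, in Trp53inp1, a p53 cofactor (0.29, adjusted p = 1.29e-06), and in Chek1 (-0.25, adjusted p = 5.99e-05). The median of the regulators was -0.01 in both lines, against 0.00 for all genes.

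Of 36 further targets 30 were tested, and 10 rose and 11 fell in 66708, while 13 rose and 8 fell in 88943. So 70.0% passed in each, against 51.9% of all genes tested in 66708 and 65.8% in 88943. Their median was -0.05 in 66708 and 0.06 in 88943. On the deposited scale the largest differences in 66708 were in Pvt1, a long non-coding RNA (-0.50, adjusted p = 1.67e-08), Pml, the nuclear body protein (-0.39, adjusted p = 1.25e-07), Lif, a cytokine (-0.39, adjusted p = 1.52e-07), and Sesn2, a sestrin related to Sesn1 (-0.36, adjusted p = 3.97e-07). On the same scale they were, in 88943, in Sesn2 (0.89, adjusted p = 2.80e-13; 6.49-fold higher in scaled reads), Polk, a translesion polymerase (0.62, adjusted p = 3.89e-11), Ei24, a membrane protein of the endoplasmic reticulum (-0.46, adjusted p = 1.28e-08), and Psrc1, a spindle protein (0.39, adjusted p = 4.77e-08). That scale compresses weakly expressed genes: in scaled reads Sesn2 (2.37-fold lower) and Psrc1 (2.11-fold lower) exceeded Pvt1 (1.62-fold lower) in 66708, and Pltp (2.96-fold higher) and Bbc3 (2.25-fold higher) exceeded Polk (1.94-fold higher) in 88943, where Psrc1, Pltp and Bbc3 were picked after their values were seen. Sesn2 averaged 3.73 CPM in 66708, against 9.41 CPM in the Slpi shERWOOD lines, and 20.3 CPM in 88943, against 2.85 CPM in the Mgp shERWOOD lines. Over both lists, 15 genes passed in both TRC lines, 11 with opposite and 4 with the same sign, a division near the 70.9% opposite among all genes passing in both.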

How the data were processed

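RNA of transduced 4T1 cells was amplified from 100 ng with the NuGEN Ovation V2 kit and sequenced as 76 bp reads, per the labels' protocols. The deposited values are on a log2-like variance-stabilized scale, in 1 table for each target gene; alignment with Bowtie2 to mm10, HTSeq and DESeq are named in the submitters' processing notes, with settings not given in the sources used here. The transform was inverted: 100% of values came out as whole reads within a tolerance of 0.001, and CPM were computed from them. The labels list 40 samples, 4 for each hairpin, while the tables hold 20 columns, 2 for each hairpin, tied to hairpins and not to samples. Whether replicates were separate cultures is not stated, so p-values measure only the spread between libraries, which may be technical.

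The tested genes averaged 10 scaled reads or more. The test was limma's moderated test on the deposited log2 values, two-sided, with 1 mean for each of the 5 hairpins in a table and p-values adjusted by Benjamini-Hochberg over every tested gene. The 2 TRC contrasts were compared with limma voom on the recovered reads. R 4.3.3 and limma 3.58.1 were used, with an intensity trend, and the moderated and voom tests were tested on simulated data. Alternatives were other filters and scalings, hairpin means, a replicate block, and leaving out each library; library totals for the TRC contrasts, leaving out libraries in the comparison of the 2 TRC contrasts, the correlations over all 10 lines and without single lines, and all alternatives of the comparison of each shERWOOD hairpin with the other 3, were chosen after seeing the data. Named genes were all members, up to 4 passing regulators and 4 passing further targets with the largest differences per TRC contrast, the 3 genes most like Trp53 and like Cdkn1a, and the hairpins' targets. The members and lists were chosen with earlier results of these data known. Gene coordinates and exon lengths are from GENCODE M21 (GRCm38).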

Additional observations from a re-analysis of the deposited data

Results flagged for a closer look

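Each member's difference in 66708 stood apart from its difference in 88943 by the voom test of the difference itself (log2, 66708 contrast minus 88943 contrast): Gadd45a -2.46, Aen 1.91, Plk2 1.68, Perp 1.55, Cdkn1a -0.71, Ccng1 0.51, Bax 0.41, Sesn1 0.35, Mdm2 0.28 and Trp53 -0.20. Since 68.3% of all genes passed the same test, this is not particular to the members. The shERWOOD references of the 2 contrasts differed too, so the result cannot be assigned to the TRC lines alone. The table, the target gene and the hairpin differ together between the 2 contrasts and cannot be told apart. Among the 4 shERWOOD lines of a table, 1 of 20 sets of member means held a line flagged by its gap to the other 3: Bax in Slpi1U1, at 37.4 CPM, the lowest of the Slpi table. Chance flags about 1 in 20 such sets, and the other 3 lines lay within 38.6 to 38.8 CPM. The Slpi1U1 libraries (37.6 and 37.2 CPM) lay between those of Slpi4 (36.4 and 40.9 CPM). Bax passed neither the F test there (adjusted p = 0.850) nor the limma test of Slpi1U1 against the other 3 (0.688).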

How the results depend on the processing

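The number of members that passed stayed at 6 to 8 in 66708 and at 5 to 7 in 88943 under every alternative run, and each member that passed in a TRC contrast kept its direction. No call of a member in a TRC contrast was lost by leaving out a library, where a line left with 1 library is assumed to vary like the others. Differences that did not pass changed sign for Gadd45a in 66708 without 66708 replicate 2 (range -0.106 to 0.034 over the left-out libraries), for Trp53 in 88943 without 88943 replicate 2 or Mgp1U1 replicate 1 (range -0.020 to 0.056), and with library totals for Sesn1 (0.11) and Bax (0.027) in 88943. Library totals moved the median of all genes by -0.08 in 66708 and 0.13 in 88943; relative to that shift Sesn1 was at -0.02, Bax at -0.10 and Trp53 at 0.04 in 88943, although Trp53 passed there before the shift was taken off (adjusted p = 0.0120). Leaving out 1 library, the Mgp shERWOOD F test called 3 to 8 members and the comparison of each shERWOOD line with the other 3 made 8 to 18 calls; without a filter that comparison made 8. The cause was not tested. The median r of the target pairs was 0 with Spearman's rho and 0.05 to 0.18 without single hairpins. Deviations of same-numbered libraries gave r of both signs. For Slpi, r ran from -0.45 to 0.47, and 3 of 10 pairs exceeded 0.1. The Mgp values ran from -0.14 to 0.24, and 4 of 10 pairs exceeded 0.1. Whether replicate numbers pair some of the libraries was therefore left undecided. A replicate block left 6 calls in 66708 and 7 in 88943. With that block, the share of all genes passing the F test among shERWOOD lines went from 6.6% to 5.16% for Slpi. For Mgp the share went from 23.4% to 27.8%.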
